A study of Homo sapiens with 10 samples.

Results

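This is the p53 knockdown experiment of the series: HCT116 cells, a human colorectal cancer line, transfected with p53 siRNA (sip53) or a control siRNA (siCTRL). It holds 4 of the 10 samples of the series, the 2 sip53 and the 2 siCTRL cultures, and was chosen by those labels. The sip53 reagent was a pool of 4 siRNAs, the control was a commercial negative control siRNA, and RNA from biological duplicates was sequenced after 72 hours of transfection. All 4 cultures were grown in the same medium, and no DNA-damaging drug or p53-stabilising drug is named for any of them. No untransfected culture is among them, so a response to the siRNA reagents themselves and a response to loss of p53 cannot be told apart. The values are FPKM, that is, reads scaled to the length of the gene and the size of the library, which makes them comparable between genes of different length. The table has 17642 rows, of which 14274 had a mean of at least 0.5 FPKM over the 4 libraries and were tested.

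The transcription factor p53 is kept at a low level in unstressed cells by the ubiquitin ligase MDM2, and rises after DNA damage and other stress. It binds paired decamer elements near its target genes and switches on cell cycle arrest, apoptosis, DNA repair and its own inhibitors. Cell cycle genes are lowered indirectly, since the p53 target CDKN1A (p21) blocks cyclin-dependent kinases and thereby keeps the DREAM repressor complex on their promoters. HCT116 cells carry wild-type p53, so the line has been used widely to study this response.

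Before any comparison, the 4 libraries were checked against each other and against cell type markers. On log2(FPKM + 0.1) values, the 2 siCTRL libraries correlated with Pearson's r = 0.964 across genes and the 2 sip53 libraries with 0.958. Across the groups, siCTRL-1 with sip53-2 (0.962) and siCTRL-2 with sip53-1 (0.963) were about as close as the duplicates. The largest principal component (46.6% of the variance) set siCTRL-2 and sip53-1 apart from siCTRL-1 and sip53-2, and the next one (42.7%) separated sip53 from siCTRL. No label names a batch with that pattern. Of 12 colon epithelial markers 9 had a mean of at least 0.5 FPKM, including EPCAM and KRT8. Their summed level was 3973 and 4286 FPKM with siCTRL and 3845 and 4431 with sip53. The intestinal marker VIL1 was at 0.13 to 0.22 FPKM, while CDX1 and CEACAM5 had no row. Of the 19 markers of fibroblasts, blood and endothelial cells, COL1A1, CD68 and LYZ alone reached that mean. CD68 was at 7.97 and 2.06 FPKM with siCTRL and 11.6 and 26.9 with sip53.

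Across all genes, 836 were higher with sip53 at an unadjusted limma p under 0.05 (5.86% of genes tested) and 1325 were lower (9.28%). On average 714 genes would be called at that threshold if no gene had changed and the limma p-values were then evenly spread. The largest principal component crossed the groups, so that even spread is not assured. After Benjamini-Hochberg adjustment over all genes, limma called 5 genes higher (0.0350%) and 34 lower (0.238%). The 2 groups did not overlap for 2862 genes that were higher with sip53 (20.1%) and for 3754 that were lower (26.3%). The median change of all genes was -0.04 on the log2 scale. When each library was first centred on its median gene, the split at the unadjusted threshold became 1120 higher and 1048 lower. In what follows, rose and fell are used of genes past the unadjusted limma threshold, with adjusted values given where they also passed. An exact permutation test of 2 against 2 cultures cannot give a two-sided p below 0.33, so single genes rest on limma, which borrows the spread from all genes. Without siCTRL-1 the unadjusted limma counts were 554 higher and 630 lower, and without siCTRL-2 they were 499 and 728. The adjusted limma count of lower genes was then 7 and 14, and that of higher genes 1 and 0. It was 3 higher without sip53-1 and 3 higher without sip53-2.

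**Figure D1:**
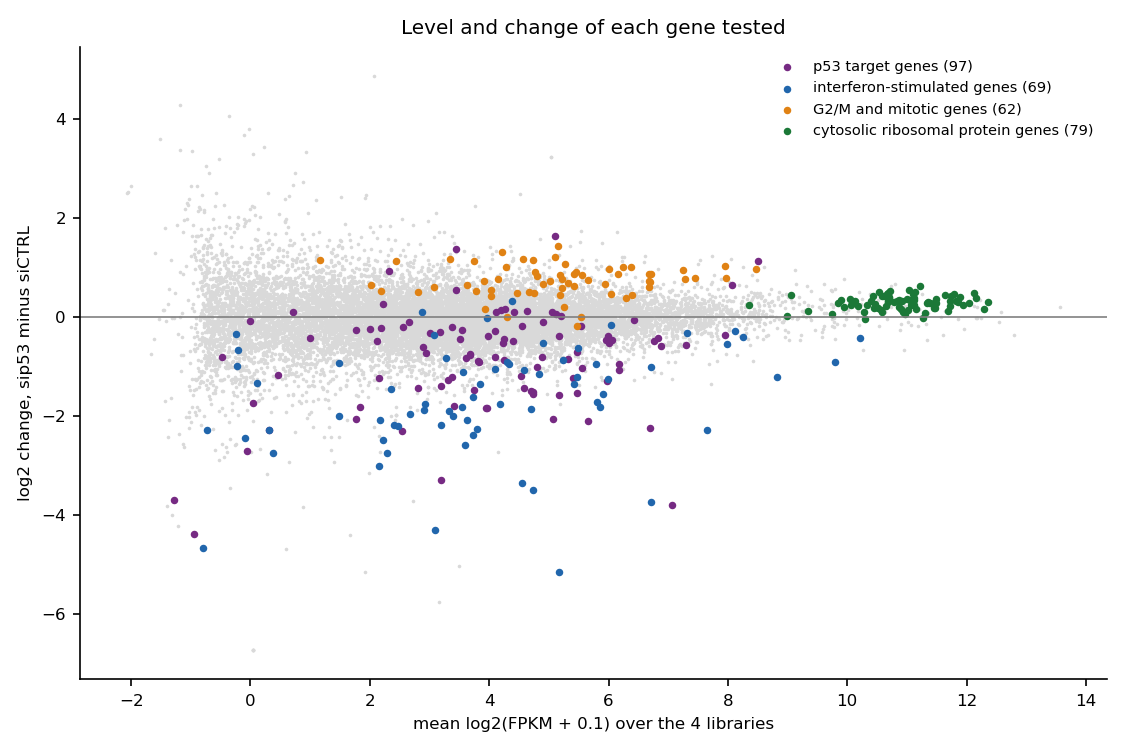
Mean log2(FPKM + 0.1) over the 4 libraries (x axis) against the log2 change, sip53 minus siCTRL (y axis), for each of the 14274 genes tested. Interferon-stimulated genes (blue) and p53 target genes (purple) lie mostly below 0, G2/M genes (orange) above 0, and ribosomal protein genes (green) just above 0 at the right end.

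Among 97 tested genes of a list of p53 targets, 50 fell, 5 rose and 42 did not pass. Over all genes, 9.28% fell and 5.86% rose. The median log2 change of the list was -0.62. CDKN1A, the cyclin-dependent kinase inhibitor p21, had 525 and 481 FPKM with siCTRL and 34.2 and 37.7 with sip53, so the groups were far apart. The gene lies at chr6:36676460-36687337 on the plus strand (hg38, GENCODE release 44). It fell by 3.80 ± 0.183 (SE) on the log2 scale, with an adjusted limma p of 0.00869. After adjustment, limma also kept BTG2, TNFRSF10C and FAM210B among 5 list members in all, a count that dropped to 1 without siCTRL-1 or without siCTRL-2. BTG2, an antiproliferative co-regulator of transcription, went from 75.3 and 62.5 FPKM to 15.0 and 17.6, and fell by 2.07 ± 0.199 (SE) on the log2 scale.

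By role, cell cycle arrest genes had the lowest median in the p53 list, -1.22, with 10 of 15 lower. TRIM22, an interferon-induced gene, is counted in this role and had its lowest log2 change, -4.38. GDF15, a secreted cytokine of the TGF-beta family, had 244 and 211 FPKM with siCTRL and 40.0 and 56.9 with sip53. It fell by 2.25 ± 0.240 (SE). GADD45A, a stress sensor widely used as a p53 readout, had 40.2 and 33.5 FPKM with siCTRL and 34.4 and 40.0 with sip53, so the groups overlapped. Its interval for the change ran from -0.48 to 0.51 on the log2 scale. SFN, the 14-3-3 sigma protein that holds cells in G2, overlapped as well, at 325 and 246 FPKM against 171 and 281.

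Feedback inhibitors of p53 were lower in 3 of 6 cases. MDM2, the ligase that degrades p53, had 92.4 and 106 FPKM with siCTRL and 42.4 and 37.8 with sip53, and fell by 1.30 ± 0.186 (SE) on the log2 scale. PPM1D, the phosphatase Wip1, fell by 1.43 ± 0.218 (SE), from 45.2 and 34.0 FPKM to 13.5 and 15.6. In both genes each sip53 value was below each siCTRL value.

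Apoptosis genes were lower in 13 of 21 cases, with a median of -0.96. BAX, which opens the outer mitochondrial membrane, had 68.9 and 83.8 FPKM with siCTRL and 24.7 and 27.2 with sip53, and fell by 1.55 ± 0.193 (SE). The RNA-binding protein gene ZMAT3 fell by 2.31 ± 0.276 (SE), from 12 and 13.6 FPKM to 3.16 and 1.97. The death receptor gene FAS fell by 1.39 ± 0.254 (SE), from 14.0 and 15.6 FPKM to 6.86 and 4.52. The groups did not overlap for any of these. ACTA2, smooth muscle actin, lies over FAS on the opposite strand and is not in the list. It went from 26.3 and 21.5 FPKM to 1.74 and 1.68, and fell by 3.72 ± 0.200 (SE) with an adjusted limma p of 0.0105. The counting is not stated to use strand, so reads of this pair cannot be told apart where they overlap.

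DNA repair and nucleotide supply genes were lower in 6 of 8 cases and none was higher. DDB2, which recognises ultraviolet lesions, had 32.0 and 26.7 FPKM with siCTRL and 6.76 and 9.55 with sip53, and fell by 1.85 ± 0.238 (SE). XPC, its partner in nucleotide excision repair, fell by 0.91 ± 0.172 (SE), from 19.8 and 18.8 FPKM to 10.6 and 9.89. Metabolism, autophagy and redox genes were more mixed, with 5 of 15 lower and 2 higher.

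The 5 members of the p53 list that rose were KRT15, CPT1C, SAT1, NEAT1 and TNFAIP8. SAT1, which acetylates polyamines, had 235 and 256 FPKM with siCTRL and 561 and 513 with sip53, and rose by 1.13 ± 0.192 (SE) on the log2 scale. KRT15, a basal keratin, rose by 1.63 ± 0.219 (SE), from 20.2 and 18.7 FPKM to 51.7 and 70.6. These genes are annotated as p53 targets but moved against the direction of the list. TNFAIP8 lost its call in each of the fits without 1 library. TRIM22, also an interferon-induced gene, was near 0 with sip53 (listed at 0 and 0.03 FPKM) against 2.01 and 2.56 with siCTRL. TRIM5 overlaps it on the opposite strand and fell by 1.45 on the log2 scale.

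A p53 element was searched in the 250 bases before the RefSeq start of each gene (GRCh38.p14). The search allowed up to 3 letters off the 2 adjoining decamers, with their central C and G fixed. Such a match was in 321 of 35114 promoters (0.914%) and in 7 of the 72 list promoters that could be matched (9.72%). It was in 6 of 42 called and in 1 of 30 not called. The matches of 2 genes that fell are shown in capitals as examples, at 69 (RPS27L) and 21 (FDXR) bases before the start. Matches in PTCHD4, AEN and TGFA lie at 20, 34 and 56 bases and are not shown.
RPS27L (chr15:63157478-63157727, minus strand): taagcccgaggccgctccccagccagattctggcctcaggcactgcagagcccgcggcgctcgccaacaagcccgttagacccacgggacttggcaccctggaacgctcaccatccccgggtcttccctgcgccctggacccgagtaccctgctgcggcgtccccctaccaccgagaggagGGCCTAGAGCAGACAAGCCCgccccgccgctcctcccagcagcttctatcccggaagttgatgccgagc
FDXR (chr17:74872995-74873244, minus strand): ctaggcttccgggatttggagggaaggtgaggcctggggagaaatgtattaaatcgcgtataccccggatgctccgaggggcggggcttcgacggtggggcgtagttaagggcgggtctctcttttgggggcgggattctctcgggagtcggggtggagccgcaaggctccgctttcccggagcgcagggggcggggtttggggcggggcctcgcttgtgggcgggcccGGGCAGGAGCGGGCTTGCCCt
RPS27L, a ribosomal-protein-like p53 target, had 81.6 and 134 FPKM with siCTRL and 28.7 and 20.1 with sip53, and fell by 2.11 ± 0.316 (SE). FDXR, the mitochondrial ferredoxin reductase, had 59.2 and 66.0 FPKM against 19.7 and 21.6, and fell by 1.59 ± 0.178 (SE). Both had wide gaps between the groups. A match describes these letters and shows no binding, and many p53 elements lie in introns or further away, outside this window.

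**Figure D2:**
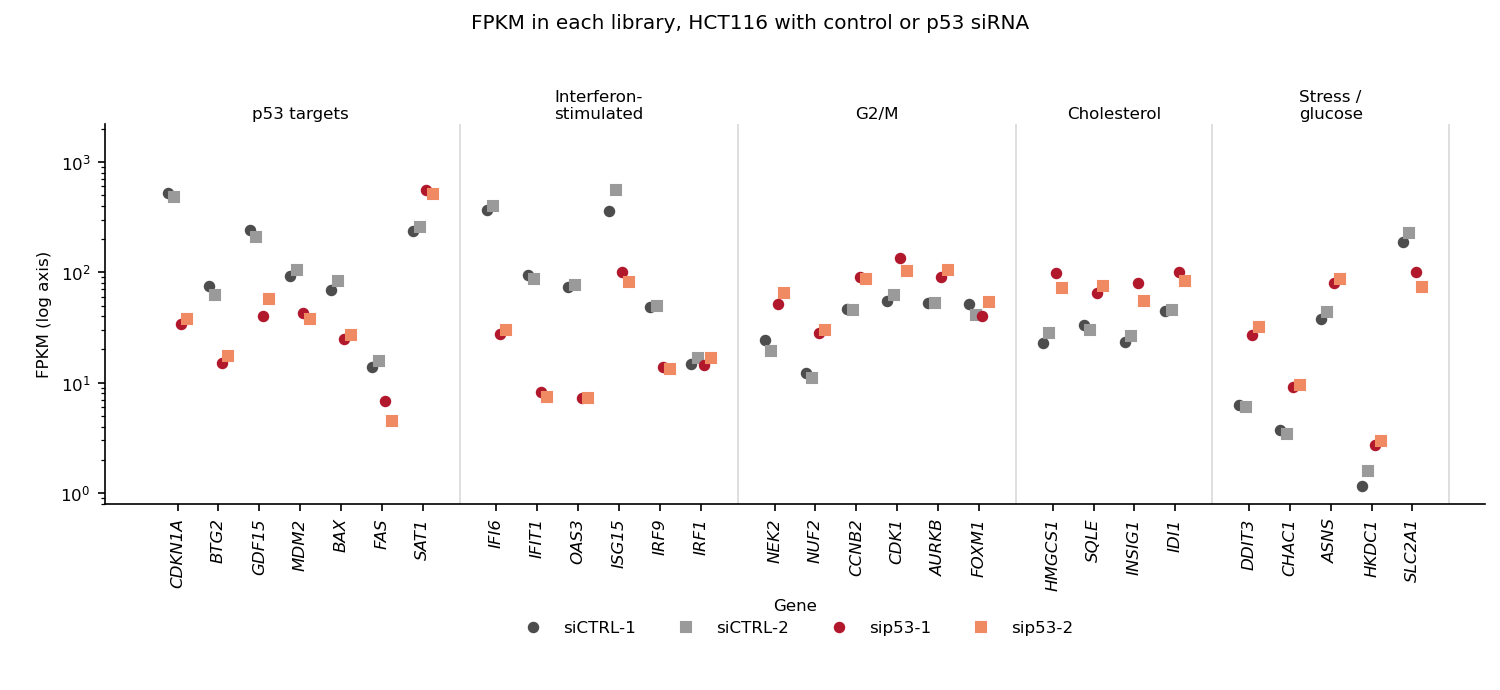
FPKM (log axis) of named genes in each of the 4 libraries, siCTRL in grey and sip53 in red and orange, grouped by list. CDKN1A, IFI6, IFIT1 and OAS3 fall 10.2- to 14-fold from siCTRL to sip53, while IRF1 and FOXM1 overlap between the groups.

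Interferon-stimulated genes had the lowest median of the 13 lists. Of 69 tested, 56 fell (against 9.28% of all genes), none rose and 13 did not pass. Their median log2 change was -1.56, against -0.04 for all genes. After adjustment 20 of them were among the 34 genes that limma called lower in all. That number was 4 without siCTRL-1, 6 without siCTRL-2 and 13 without sip53-2. It was 11 after centring on the median gene, 5 with no variance trend and 3 without the filter on low FPKM, while at least 49 were lower at the unadjusted threshold in each of these fits. Interferon signalling works through JAK kinases and the transcription factor complex ISGF3, of which IRF9 is a subunit and which binds interferon-stimulated response elements in the promoters of antiviral genes.

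Among the antiviral effectors, 38 of 43 fell, with a median of -1.83. IFI6, a mitochondrial and reticulum antiviral protein, had 366 and 402 FPKM with siCTRL and 27.4 and 29.7 with sip53, and fell by 3.74 ± 0.180 (SE) with an adjusted limma p of 0.00869. IFIT1, which binds the ends of viral RNA, had 94.1 and 86.4 FPKM with siCTRL and 8.18 and 7.45 with sip53, and fell by 3.51 ± 0.176 (SE) at the same adjusted limma p. OAS3, an oligoadenylate synthetase that activates RNase L, went from 73.9 and 76.3 FPKM to 7.33 and 7.21. In each of these genes the duplicates lay close together and the groups did not overlap. ISG15, a ubiquitin-like modifier, had 356 and 559 FPKM with siCTRL and 100 and 82.3 with sip53, and fell by 2.29 ± 0.280 (SE). IFITM3, which blocks viral entry, was high throughout, at 1326 and 1119 FPKM against 569 and 734, and fell by 0.91 ± 0.239 (SE). Its call was lost without siCTRL-1 and without sip53-1. IFI27, an interferon-alpha-induced gene, went from 162 and 288 FPKM to 9.05 and 3.89. OAS1 went from 36.8 and 39.3 FPKM to 2.63 and 1.25. IFI44L was listed at 0 and 0.03 FPKM with sip53, against 2.93 and 2.70 with siCTRL.

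RNA sensors and signalling and transcription factors showed the same direction, with 11 of 13 lower and a median of -1.86. IRF9 had 48.3 and 50.0 FPKM with siCTRL and 13.7 and 13.3 with sip53, and fell by 1.86 ± 0.168 (SE) with an adjusted limma p of 0.0425. The RNA helicase sensor DDX58 (RIG-I) fell by 2.09 ± 0.174 (SE), from 26.1 and 24.8 FPKM to 5.66 and 6.11. IRF1, the regulator of the interferon-gamma response, overlapped between the groups. It had 14.6 and 16.8 FPKM with siCTRL and 14.4 and 16.7 with sip53.

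Antigen presentation genes were lower in 7 of 13 cases, with a smaller median of -0.56. TAP1, the peptide transporter of the endoplasmic reticulum, had 55.5 and 81.2 FPKM with siCTRL and 35.2 and 24.0 with sip53, and fell by 1.21 ± 0.291 (SE). B2M, the light chain of class I molecules, had 1551 and 1204 FPKM against 967 and 1085 and did not pass, with an interval from -1.01 to 0.18 on the log2 scale. Several called genes are neighbours: IFIT2, IFIT3 and IFIT1, OAS1 and OAS3, and IFI44L and IFI44 each stand within 100000 bases of one another, while PARP9 and DTX3L overlap on opposite strands.

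The interferon regulatory factor (IRF) element, searched as GAAANNGAAA on both strands of the same 250 bases, was in 31 of 58 list promoters that could be matched (53.4%) and in 3.02% of all promoters. It was in 27 of 47 promoters of list members that fell and in 4 of 11 that did not pass. All promoters are the 35114 searched above, which include genes that were not tested. Here too a match shows no binding. The promoters of 3 members that fell and hold more than 1 match are shown as examples, with the matches in capitals. Others that fell, such as IFI27 and OAS3, also hold more than 1. OAS1, HERC6 and RSAD2 fell and hold none in this window.
IFI6 (chr1:27672193-27672442, minus strand): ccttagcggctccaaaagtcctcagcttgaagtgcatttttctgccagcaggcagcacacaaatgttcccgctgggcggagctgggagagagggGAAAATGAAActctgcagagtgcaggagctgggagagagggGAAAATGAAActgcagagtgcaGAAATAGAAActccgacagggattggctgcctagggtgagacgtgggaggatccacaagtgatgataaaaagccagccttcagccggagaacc
IFIT1 (chr10:89392373-89392622, plus strand): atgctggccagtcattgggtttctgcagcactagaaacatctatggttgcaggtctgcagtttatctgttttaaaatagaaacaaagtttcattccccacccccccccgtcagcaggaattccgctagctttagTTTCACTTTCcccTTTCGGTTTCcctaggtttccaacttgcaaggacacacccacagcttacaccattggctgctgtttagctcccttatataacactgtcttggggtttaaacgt
ISG15 (chr1:1013247-1013496, plus strand): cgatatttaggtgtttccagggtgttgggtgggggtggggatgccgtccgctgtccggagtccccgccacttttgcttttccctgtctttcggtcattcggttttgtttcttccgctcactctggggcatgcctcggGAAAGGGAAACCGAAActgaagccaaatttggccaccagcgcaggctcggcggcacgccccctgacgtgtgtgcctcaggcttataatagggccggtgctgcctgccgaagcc
In IFI6 the 3 matches start 156, 115 and 93 bases before the start. In ISG15 the 2 matches overlap, at 113 and 107 bases. In IFIT1 both lie on the reverse strand as printed, so that the letters read TTTC rather than GAAA.

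**Figure D3:**
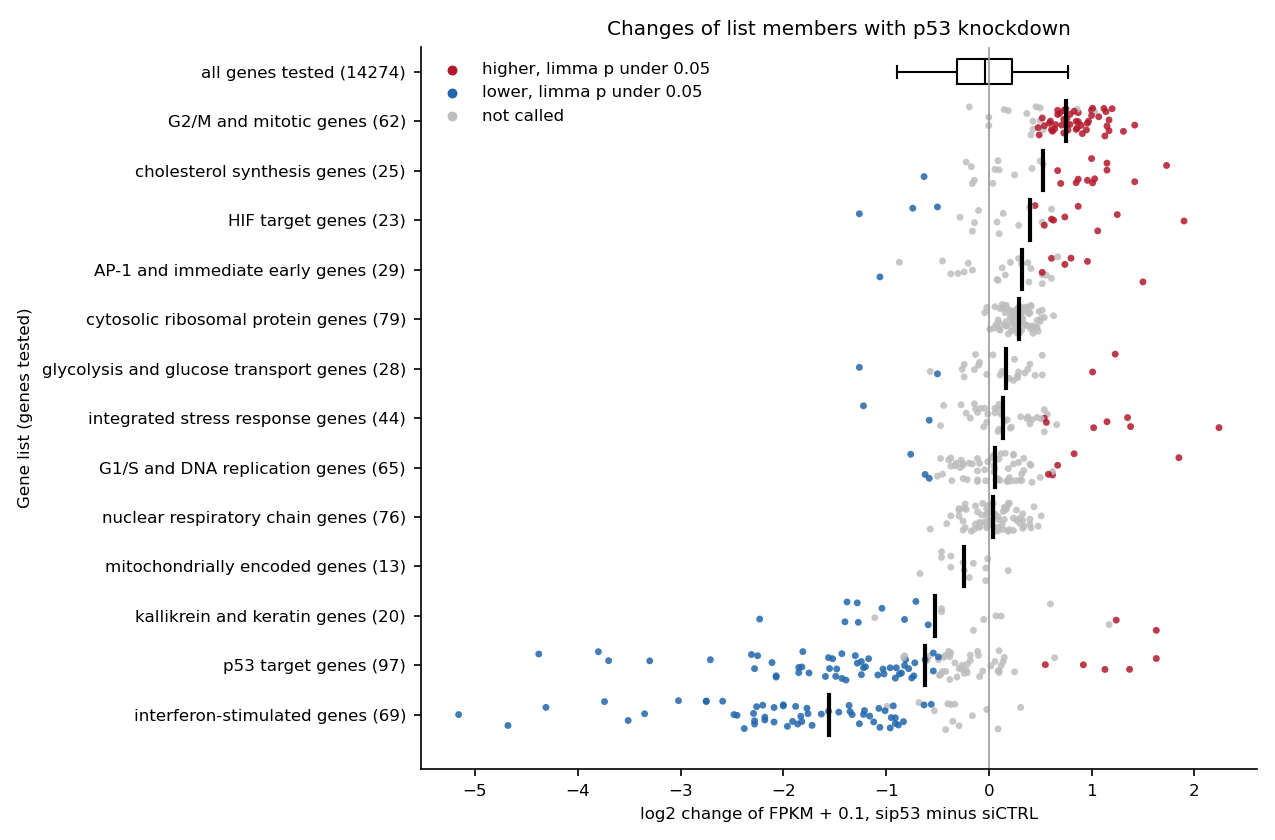
Log2 change, sip53 minus siCTRL, of each tested member of the 13 gene lists (points, one per gene), with the list median as a black bar and the number of genes tested in parentheses. The box at the top shows all genes (quartiles, with whiskers at the 5th and 95th percentiles). Interferon-stimulated genes reach -5.16 and the G2/M genes have a median of 0.75.

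Genes of G2 and mitosis moved the other way as a group. Of 62 tested, 47 rose (against 5.86% of all genes), none fell and 15 did not pass. Their median was 0.75 on the log2 scale. None passed adjustment by limma, while 47 passed the unadjusted threshold. The median was 0.86 for the kinases, cyclins and regulators (20 of 26 higher) and 0.70 for spindle, kinetochore and chromosome structure genes (27 of 36 higher). Without siCTRL-1 the number higher was 27, and without siCTRL-2 it was 24. In bulk RNA, a larger share of cells in G2 or mitosis and more of these RNAs per cell cannot be told apart.

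NEK2, a centrosome kinase, had 24.3 and 19.3 FPKM with siCTRL and 51.8 and 65.4 with sip53, and rose by 1.42 ± 0.220 (SE). NUF2, a kinetochore protein, had 12.3 and 11.1 FPKM against 28.0 and 30.3, and rose by 1.31 ± 0.177 (SE). CCNB2, cyclin B2, went from 46.3 and 45.6 FPKM to 91.6 and 87.2, and rose by 0.96 ± 0.171 (SE). In each of these the groups did not overlap. The duplicates of NUF2 and CCNB2 lay close together, and those of NEK2 less so. CDK1, the kinase that drives entry into mitosis, had 55.5 and 62.3 FPKM against 134 and 103, and rose by 1.00 ± 0.213 (SE). The transcription factor FOXM1, which activates G2/M genes, had 51.8 and 41.4 FPKM with siCTRL and 39.8 and 54.2 with sip53. MYBL2 (50.0 and 44.2 against 36.1 and 47.2 FPKM) overlapped between the groups in the same way.

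G1/S and DNA replication genes showed no such shift, with a median of 0.06. Of 65 tested, 5 were higher and 3 lower, against 5.86% and 9.28% of all genes. Without siCTRL-1 these counts were 2 and 0, without siCTRL-2 they were 3 and 2, and without sip53-2 they were 6 and 1. ZNF367, a zinc finger protein, was the only member past the adjusted limma threshold, at 3.64 and 3.18 FPKM with siCTRL and 12.5 and 12.5 with sip53. That adjusted limma call was lost without any 1 of the 4 libraries, after centring, with no variance trend and without the filter, while the unadjusted call stayed. RRM2, the ribonucleotide reductase subunit of S phase, fell by 0.76 ± 0.208 (SE), from 218 and 219 FPKM to 146 and 114. Its call was lost without siCTRL-1, without siCTRL-2 and without sip53-2. PCNA, the sliding clamp, did not pass, at 255 and 279 FPKM against 207 and 184.

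The CCNB2 promoter is shown as an example that holds both elements searched for the G2/M list, as others such as CKS1B do. The CCAAT box (searched as CCAAT) was in 38 of 52 matched promoters of the list (73.1%) and in 32.0% of all promoters. It was also in 15 of 18 matched promoters of the cholesterol synthesis list (83.3%). The CHR element, which the DREAM complex binds (searched as TTTGAA), was in 25 of 52 (48.1%) and in 13.3% of all. Both were searched on both strands, and the CCNB2 promoter holds 4 CCAAT boxes and 1 CHR element in capitals.
CCNB2 (chr15:59104896-59105145, plus strand): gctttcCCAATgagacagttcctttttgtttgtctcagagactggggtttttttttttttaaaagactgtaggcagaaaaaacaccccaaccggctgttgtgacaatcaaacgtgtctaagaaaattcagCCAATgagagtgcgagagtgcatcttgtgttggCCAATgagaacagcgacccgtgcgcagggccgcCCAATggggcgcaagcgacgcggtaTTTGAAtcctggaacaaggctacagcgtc
Of the list members that rose, 30 of 40 held a CCAAT box and 21 of 40 a CHR element. Of those that did not pass, 8 of 12 and 4 of 12 did. These matches show no binding either.

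Cholesterol synthesis genes were higher in 12 of 25 cases and lower in 1, against 5.86% and 9.28% of all genes. Their median was 0.53. SREBP2 activates these genes when sterols are scarce. HMGCS1, which makes HMG-CoA, had 22.8 and 28.4 FPKM with siCTRL and 98.6 and 72.3 with sip53, and rose by 1.73 ± 0.237 (SE). INSIG1, which holds the SREBP complex in the reticulum, had 23.3 and 26.4 FPKM against 80.8 and 54.6, and rose by 1.42 ± 0.247 (SE). SQLE, squalene epoxidase, rose by 1.15 ± 0.185 (SE), from 33.1 and 30.2 FPKM to 65.3 and 75.8. The groups of these genes lay well apart. TM7SF2, a sterol reductase, was the member that fell, and its call was lost without siCTRL-2 and without sip53-1. A sterol response element, the SREBP binding sequence (searched as TCACNCCAC on both strands), was in 1 of the 18 matched promoters (5.56%) and in 0.883% of all. That promoter was one of the 9 whose genes did not pass, and none of the 9 of called genes held a match.

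Integrated stress response genes had a median of 0.13. Of 44 tested, 7 rose and 2 fell, against 5.86% and 9.28% of all genes. Without siCTRL-1 or without siCTRL-2, 4 were higher and 1 was lower. DDIT3 (CHOP), a transcription factor of this response, rose by 2.24 ± 0.183 (SE) with an adjusted limma p of 0.0387. Its adjusted call was lost without siCTRL-1, without siCTRL-2, with no variance trend and without the filter, and its unadjusted call stayed in each. CHAC1, which degrades glutathione, had 3.75 and 3.45 FPKM with siCTRL and 9.18 and 9.53 with sip53, and rose by 1.35 ± 0.186 (SE). ASNS, asparagine synthetase, had 38.0 and 43.8 FPKM against 80.0 and 86.3, and rose by 1.02 ± 0.183 (SE). ATF4, which drives these genes and is regulated largely by translation, had 217 and 162 FPKM against 228 and 342 and did not pass. SESN2, which also stands in the p53 list, fell by 1.22 ± 0.171 (SE).

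Glycolysis and glucose transport genes held 2 that rose and 2 that fell among 28 tested, with a median of 0.17. These shares are near those of all genes (5.86% higher and 9.28% lower). Without siCTRL-1, 1 was higher and 1 lower, and 1 was lower without siCTRL-2 or without sip53-2. HKDC1, a hexokinase domain protein that the study follows, had 1.16 and 1.58 FPKM with siCTRL and 2.71 and 2.97 with sip53, and rose by 1.01 ± 0.276 (SE). Its call was lost without siCTRL-1 and without sip53-2. The hexokinase HK2 overlapped between the groups, at 10.2 and 12.7 FPKM against 18.4 and 12.01. ALDOC, an aldolase, rose by 1.23 ± 0.191 (SE), from 64.7 and 62.3 FPKM to 135 and 163. SLC2A1, the glucose transporter GLUT1, had 190 and 225 FPKM with siCTRL and 102 and 73.1 with sip53, and fell by 1.26 ± 0.238 (SE).

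Against 5.86% higher and 9.28% lower of all genes, targets of the hypoxia factor HIF were higher in 9 of 23 cases and lower in 3. Their median was 0.40. Without 1 library, the number higher was 5 (siCTRL-1), 4 (siCTRL-2), 5 (sip53-1) and 7 (sip53-2). CA9, a membrane carbonic anhydrase, was low with siCTRL (0.36 and 0.42 FPKM) and 1.70 and 1.74 FPKM with sip53. NDRG1, a stress-induced gene, had 132 and 118 FPKM against 241 and 280, and rose by 1.06 ± 0.195 (SE). SLC2A1 and PFKFB4, both of the glycolysis list too, were among those that fell. The number lower was 1 without siCTRL-2 and 1 without sip53-2. The list of AP-1 and immediate early genes (29 tested) held 6 that rose and 1 that fell, against 5.86% and 9.28% of all genes. Of the 10 AP-1 factors 3 rose, and of the 19 other immediate early genes 3 rose and 1 fell. The number of the list that was higher was 2 without siCTRL-2 and 4 without siCTRL-1. DUSP5, a phosphatase of ERK, rose 2.83-fold, from 31.7 and 38.8 FPKM to 118 and 83.9. IER5, a p53-responsive early gene, fell by 1.06 ± 0.182 (SE), from 34.0 and 39.0 FPKM to 18.2 and 16.6.

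Kallikrein and keratin genes had 9 of 20 lower and 2 higher, against 9.28% and 5.86% of all genes. Their median was -0.53. With a replicate block, 6 of the list were lower and 2 higher (650 and 434 of all genes). KLK5, an epithelial serine protease, had 5.72 and 4.89 FPKM with siCTRL and 1.02 and 1.08 with sip53, and fell by 2.23 ± 0.238 (SE). KLK6, its neighbour on chromosome 19, fell by 1.28 ± 0.260 (SE), from 76.1 and 57.8 FPKM to 22.8 and 32.7. KRT15 was one of the 2 that rose, and KLK1 the other, whose call was lost without siCTRL-2 and without sip53-2.

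Ribosomal protein genes held no gene past the unadjusted limma threshold (3 after centring on the median gene and 1 with no variance trend), and 77 of 79 had a positive log2 change. For 34 of the 79 the groups did not overlap and sip53 was the higher, a larger share than the 20.1% of all genes. Their median was 0.29. RPSA, which had the highest change of the list, had 1698 and 2169 FPKM with siCTRL and 3324 and 2649 with sip53, a difference of 0.63 ± 0.261 (SE) that did not pass. None of the 13 mitochondrially encoded genes was called (2 were lower without siCTRL-2), and all 13 overlapped between the groups. Their list median per library, relative to each gene's mean, was 0.76 in siCTRL-1, -0.57 in siCTRL-2, -0.50 in sip53-1 and 0.32 in sip53-2. MT-ATP8 had 15844 FPKM in siCTRL-1 and 4118 in siCTRL-2, and 3981 in sip53-1 and 9795 in sip53-2. This list therefore split the libraries into the same pairs as the largest principal component, and not by siRNA. Of 76 nuclear genes of the respiratory chain none was called (2 were higher without sip53-1 and 2 after centring), with a median of 0.04.

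**Figure D4:**
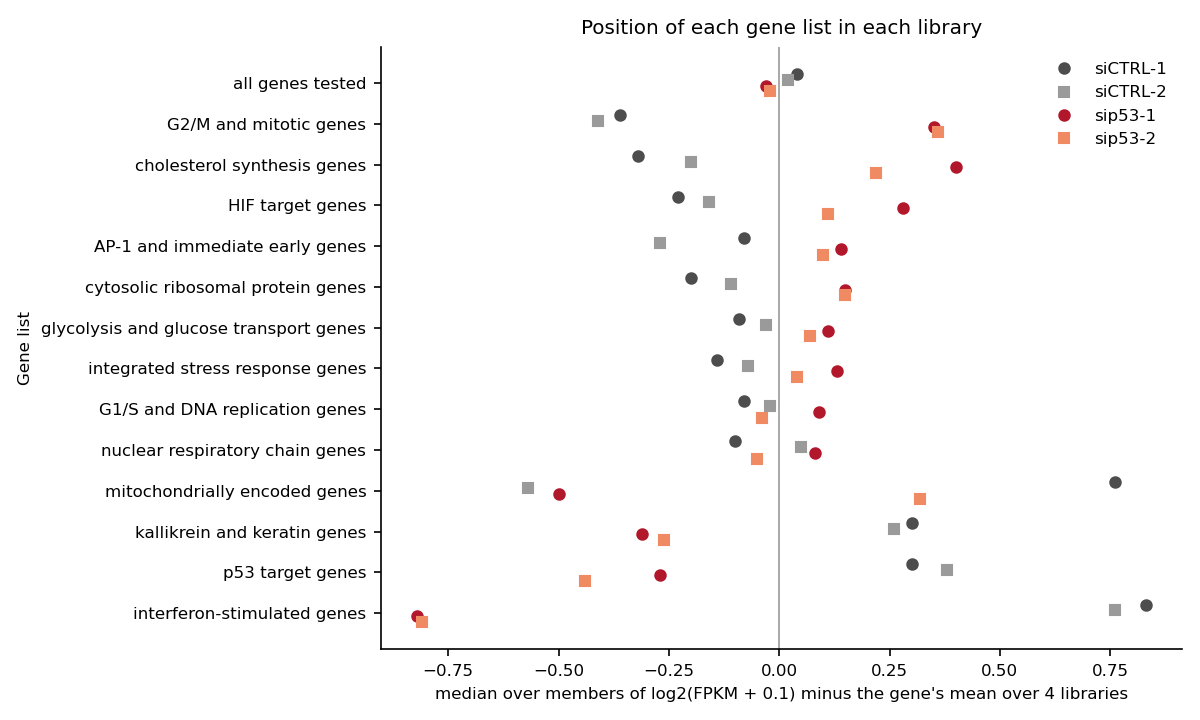
Median over the members of each gene list of log2(FPKM + 0.1) minus the gene's mean over the 4 libraries (x axis, log2 units), for each library. The G2/M, cholesterol, HIF, ribosomal protein, AP-1, glycolysis and stress response lists place both sip53 libraries above both siCTRL libraries. The interferon, p53 and kallikrein and keratin lists place them below, as all genes tested do by a smaller margin. The G1/S and nuclear respiratory chain lists do not separate the groups. The mitochondrially encoded list crosses the groups (0.76, -0.57, -0.50 and 0.32).

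Beyond these lists, the 34 genes lower after adjustment by limma included KRTAP3-1, ACTA2, CDK6, LGALS9, PARP10, TMEM150A, RP11-6N17.4 and C19orf82. KRTAP3-1, a keratin-associated protein gene, had 22.4 and 22.6 FPKM with siCTRL and 0.35 and 0.80 with sip53. CDK6, the G1 cyclin-dependent kinase, had 40.7 and 50.6 FPKM with siCTRL and 8.19 and 5.56 with sip53, and fell by 2.73 ± 0.256 (SE). PARP10, a mono-ADP-ribosyltransferase, had 7.43 and 7.09 FPKM against 0.71 and 1.03. LGALS9, galectin 9, went from 10.4 and 12.9 FPKM to 1.90 and 1.43. The groups of all these were far apart.

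The 5 genes higher after adjustment by limma were FGFBP1, CALB1, RP11-315D16.2, DDIT3 and ZNF367. FGFBP1, a secreted carrier of fibroblast growth factors, had 9.53 and 9.54 FPKM with siCTRL and 52.7 and 55.4 with sip53, and rose by 2.49 ± 0.168 (SE). RP11-315D16.2 had 0.25 and 0.26 FPKM against 3.60 and 3.86. It overlaps CLN6 on the same strand, a lysosomal disease gene that had 11.4 and 14.4 FPKM with siCTRL and 5.08 and 4.42 with sip53, and how reads were split between them is uncertain. Further genes that rose at small unadjusted p were KIAA0040 (1.43 ± 0.168 (SE)), RASGRP2, an activator of Rap (1.60 ± 0.193 (SE)), and TEX19 (1.98 ± 0.245 (SE)). The long non-coding RNA LINC00431 had 0.94 and 0.76 FPKM with siCTRL and 5.48 and 4.04 with sip53. CTD-2576D5.4, which lies on the opposite strand within XYLT1, had 0.37 and 0.70 FPKM against 4.15 and 4.90. CALB1, the calcium buffer calbindin, was at 0.18 and 0.15 FPKM against 3.45 and 3.72. These last values are low, and the depth behind them is unknown.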

How the data were processed

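The data are RNA-seq of 4 HCT116 cultures, 2 with siCTRL and 2 with sip53. The deposited table holds FPKM per gene for each library, which the authors computed from aligned reads with normalization to gene length and library size. The submitters' processing notes name CASAVA 1.8.2, TopHat2 2.0.8 and FastQC 0.11.2 and the builds hg19 and hg38, without roles. The table also has the authors' own mean signals, log2 fold changes, standard errors, statistics and p-values, which were not used. FPKM give no read depth, so counting error is unknown.

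Here log2(FPKM + 0.1) was tested with limma 3.58.1 (R 4.3.3, variance trend, two-sided, Benjamini-Hochberg over all genes), for rows with a mean of at least 0.5 FPKM. Groups came from the labels, where the duplicates are called biological. The script was tested on simulated data. The gene lists and members were chosen with earlier results of these data known, and lists are described by counts and medians only. Named genes were CDKN1A, ZMAT3 and HKDC1, the 10 largest changes in each direction past the adjusted threshold, the 10 genes that rose with the smallest p, and the up to 5 members of each list and role with the smallest p. Other list members, such as GADD45A and IRF1, were picked after their values were seen. The level of the targeted gene and of some list members is not reported here. Coordinates of promoters are RefSeq, GRCh38.p14. Gene neighbours and overlaps are from GENCODE release 44. Alternatives were another pseudocount, other filters, centring, no variance trend, a replicate block and leaving out each library.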

Additional observations from a re-analysis of the deposited data

How the results depend on the processing

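No gene named here that was called in the main result changed direction under the alternatives tried. Among list medians, those of the mitochondrially encoded and nuclear respiratory chain genes changed sign when single libraries were left out, and no other did. Requiring a mean of at least 5 FPKM left 555 genes higher at the unadjusted threshold. Without the filter, the adjusted limma counts were 0 higher and 5 lower. After centring on the median gene the adjusted limma count of lower genes was 17. With no variance trend the adjusted limma counts were 2 higher and 13 lower. Centring moved the list medians to 0.14 for G1/S, 0.83 for G2/M, -1.48 for interferon-stimulated, 0.21 for integrated stress response, 0.24 for glycolysis, 0.36 for ribosomal protein and -0.45 for kallikrein and keratin genes. The interferon median was -1.28 with a pseudocount of 1, -1.51 with the mean of at least 5 FPKM and -1.47 without a filter. In the same order, the kallikrein and keratin median was -0.38, -0.59 and -0.46. The glycolysis median was 0.13 with the stricter filter and 0.20 without a filter, and the HIF median was 0.27 with the stricter filter. The cause of these shifts was not tested.

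With one library left out, the lone library of a group is assumed to vary like the other group. Counts at the unadjusted threshold then ranged from 499 to 747 higher and from 630 to 1202 lower. The adjusted limma counts ranged from 0 to 3 higher and from 7 to 38 lower. List medians ranged from -0.83 to -0.57 for p53 target genes, 0.01 to 0.09 for G1/S and DNA replication genes, 0.70 to 0.77 for G2/M and mitotic genes, -1.65 to -1.51 for interferon-stimulated genes, 0.10 to 0.21 for integrated stress response genes, 0.10 to 0.14 for glycolysis and glucose transport genes, 0.29 to 0.52 for HIF target genes, 0.37 to 0.64 for cholesterol synthesis genes, 0.24 to 0.44 for AP-1 and immediate early genes, 0.25 to 0.35 for cytosolic ribosomal protein genes, -0.92 to 0.53 for mitochondrially encoded genes, -0.06 to 0.12 for nuclear respiratory chain genes, -0.69 to -0.54 for kallikrein and keratin genes. The deviations of libraries with the same number ran against each other (correlation -0.616). No label states whether the numbers pair the cultures, and this was not tested. A replicate block gave 434 higher and 650 lower genes, and 13 and 52 by adjusted limma p. A crossed replicate block, siCTRL-1 with sip53-2, was added after seeing the data. It gave 2410 higher and 3128 lower, with 1553 and 2089 by adjusted limma p. Among them were 51 ribosomal protein and 57 G2/M genes higher (60 and 57 unadjusted). Without a block these counts were 0 and 0 by adjusted p (0 and 47 unadjusted). The crossed pairing was read from the same values that were then tested, so a gain in calls was built in. Its counts are therefore no support for a change in any gene or list. FPKM hold no depth, so low values such as those of CA9 and TRIM22 have an unknown counting error.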
